A study of Cucumis melo with 24 samples.

Results

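The 12 libraries described here are fruit flesh of melon, Cucumis melo, taken at 35 and 45 days after pollination (DAP) from wild type (WT) and from the cmnac-nor mutant, with 3 libraries in each of 4 groups, out of 24 libraries in the series. Each gene has 2 late changes, from 35 to 45 DAP in WT and over the same interval in the mutant, and the quantity of interest is the mutant change minus the WT change. A positive difference, written below as toward the mutant, means that a gene went up more, or down less, in the mutant than in WT. The other 12 libraries, WT and mutant at 15 and 25 DAP, entered the model through its shared estimate of spread but none of the late contrasts, and are used below to see how the same genes moved early. The labels name the tissue, genotype and age, and give neither the kind of mutation, nor the cultivar, nor whether libraries of the same group are separate fruits, so p-values measure the spread between these libraries, which may be technical.

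Melon is a fleshy fruit whose ripening, in climacteric types, is accompanied by a burst of the gas ethylene, made from S-adenosylmethionine by ACC synthase and ACC oxidase. Ripening flesh loses chlorophyll, gains carotenoids in orange types, dissolves pectin and other wall polymers, and stores sugars. CmNAC-NOR encodes a transcription factor of the NAC family, and its tomato relative NOR is known as a regulator of ripening. A genotype by age comparison asks whether the genes that move late in one genotype also move late in the other, in the same direction, in the opposite direction, or not at all.

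Values are TPM, a level relative to all transcripts of the same library and corrected for transcript length. Changes are differences of log2(TPM + 1) with their standard error (SE), which understates the change of low genes. Genes were tested where 3 or more of the 24 libraries reached 1 TPM, 17658 of the 29980 genes listed, and a gene was called when its Benjamini-Hochberg adjusted p from limma-trend was under 0.05. Depth is unknown. Each late library had between 13980 and 15585 genes at 1 TPM or more. Both libraries numbered 2 at 35 DAP stood apart from their groups. WT replicate 2 correlated at 0.957 to 0.961 with the WT libraries of 45 DAP and at 0.949 to 0.962 with its own group, and mutant replicate 2 had the lowest correlations within its group, 0.925 to 0.948. Many counts that rest on either are given with and without it, and others only with it.

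CmNAC-NOR itself (MELO3C016540.2, identified from published work) stood at 1063, 798 and 1289.6 TPM in the 3 WT libraries of 35 DAP and at 511, 430.3 and 432 TPM at 45 DAP. In the mutant it stood at 1216, 1028 and 1213 TPM and then at 1808, 1857 and 1919.7 TPM. All WT libraries were lower at 45 than at 35 DAP and all mutant libraries higher, with no overlap in either genotype. The late difference of 1.87 ± 0.74 had an adjusted p of 0.0729 and was not called, but the adjusted p was 0.000746 when only the 12 late libraries were fitted. The kind of mutation is not given, so the transcript level is no check of the genotype labels.

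The mutant step called 5164 genes, 2306 higher at 45 DAP (13.1% of the genes tested) and 2858 lower (16.2%). The WT step called 2821, 1272 higher (7.2%) and 1549 lower (8.77%). The difference between the late changes was called for 4438 genes, in 2105 of them toward the mutant (11.9%) and in 2333 away from it (13.2%), and 2547 of the 4438 differed at least 2-fold. Median changes over all genes tested were 0.001 in WT and -0.027 in the mutant on the log2 scale, and the median difference was -0.046. The WT count moved with single libraries: 3635 genes were called without WT replicate 2 at 35 DAP, 1678 without replicate 1 and 1533 without replicate 3. Without both libraries numbered 2 at 35 DAP, 3698 genes were called in WT and 4107 in the mutant, and the order of the rises turned, with 2037 in WT and 1719 in the mutant. The 2 late steps share no library.

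Sorted by these tests, 461 genes had shared late changes, called in both genotypes in the same direction (146 higher and 315 lower). Reversed changes, called in both genotypes in opposite directions, were found for 527 genes, 285 that rose in the mutant while they fell in WT and 242 that did the opposite. In 1045 genes the WT step and the difference were called and the mutant step was not (504 higher in WT with age, 541 lower). In 2404 genes the mutant step and the difference were called and the WT step was not (1078 higher, 1326 lower). A further 407 genes differed with neither step called, 2560 had 1 step called and no called difference, and 10254 had no late change. The 988 genes called in both steps were 35% of the WT calls and 19.1% of the mutant calls.

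A step that was not called is not a step of 0. Among the genes called in the mutant alone the WT change had the opposite sign in 1737 of 2404, with a median size of 0.189 against 0.965 in the mutant, and 48 had a WT change of 1 or more. Among the genes called in WT alone the mutant change had the opposite sign in 778 of 1045, with a median size of 0.194 against 0.917 in WT. Both classes require a called difference, which favours opposite signs, so these counts of signs follow in part from the rule. Of the 461 shared genes, 55 also had a called difference, so that size differed while direction did not. Without WT replicate 2 at 35 DAP there were 856 reversed genes, 521 shared, 1436 called in WT alone and 2240 in the mutant alone, and 247 of the genes called in the mutant alone became reversed. Without WT replicate 1 or 3 at 35 DAP the reversed genes numbered 272 and 250 and those called in WT alone 676 and 623. Leaving out WT replicate 1 or 3 at 45 DAP gave 351 and 328 reversed genes. Shared genes then outnumbered reversed ones without WT replicate 1 at 35 DAP (322 shared), replicate 3 at 35 DAP (303) or replicate 3 at 45 DAP (370). A class was kept without each of the 12 libraries in turn by 147 shared, 153 reversed, 451 WT and 1246 mutant genes.

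**Figure D1:**
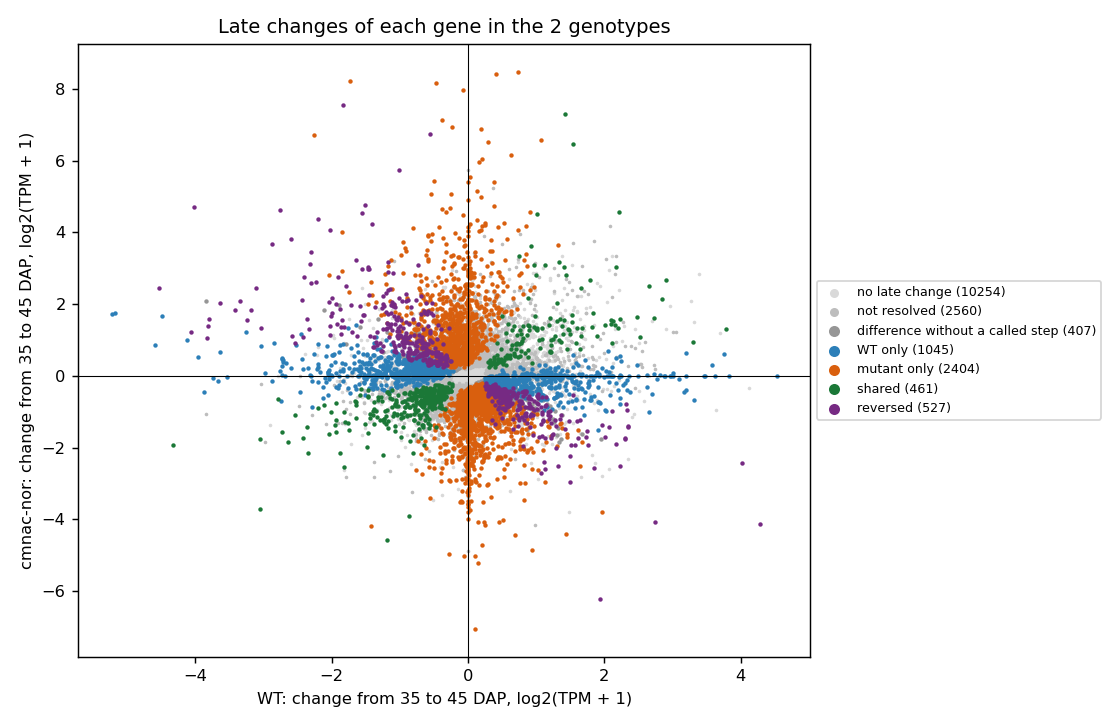
Late change of each of the 17658 genes tested in WT (horizontal axis) and in cmnac-nor (vertical axis), both as differences of log2(TPM + 1) between 45 and 35 DAP, 1 point a gene, coloured by class with the number of genes in the key. The 2404 genes called in the mutant alone spread along the vertical axis, the 1045 called in WT alone along the horizontal one, and the 527 reversed genes lie in the upper left and lower right.

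The summed levels show how much transcript the classes held. Both sets below were picked in these same libraries for a called mutant step and no called WT step. The move of the mutant sums beside steadier WT sums therefore follows largely from the rule. The 1078 genes that rose in the mutant alone summed to between 28757 and 35300 TPM in the mutant libraries of 35 DAP and to between 90199 and 108192 TPM at 45 DAP. In WT the same genes already held between 89204 and 112626 TPM at 35 DAP and between 79797 and 96887 TPM at 45 DAP. The 1326 genes that fell in the mutant alone went from between 150228 and 180532 TPM to between 78650 and 83977 TPM, against 60774 to 75409 and 70597 to 77295 TPM in WT. For both sets the mutant range at 35 DAP lay apart from both WT ranges, and the mutant range at 45 DAP lay close to or across the WT ranges.

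Pectin-modifying genes held some of the largest late rises of the mutant. Pectin is the gel of the middle lamella, and its removal softens fruit. Of 78 genes tested on that list the late difference was toward the mutant for 18 (23.1%, against 11.9% of all genes) and away from it for 9 (11.5%, against 13.2%), with a median of -0.13 against -0.046 over all genes, so that the counts and the median lean opposite ways. The count away was 15 without WT replicate 2 at 35 DAP and 14 with quantile normalization. In the mutant step 16 rose (20.5%, against 13.1% of all genes) and 19 fell (24.4%, against 16.2%). The falls were 12 without mutant replicate 2 at 35 DAP. A polygalacturonase (MELO3C011986.2), an enzyme that cuts the pectin backbone, stood at 32.5, 28.3 and 33.9 TPM in WT at 35 DAP and at 12.6, 10.4 and 8.56 TPM at 45 DAP. Its mutant libraries went from 29.5, 28.2 and 41.1 TPM to 945, 728 and 1066 TPM. At 35 DAP the ranges of the genotypes overlapped, and by 45 DAP every mutant library was far above every WT library. The gene fell by 1.51 ± 0.21 in WT and rose by 4.75 ± 0.21 (SE) in the mutant, a difference of 6.26 ± 0.30 (limma-trend, adjusted p = 1.05e-10).

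A pectinesterase inhibitor (MELO3C006266.2), a protein that blocks the enzymes that remove methyl groups from pectin, was nearly silent in mutant flesh of 35 DAP. Mutant libraries held 0.33, 0 and 0.22 TPM at 35 DAP and 402, 319 and 565 TPM at 45 DAP, while WT held 1.97, 1.57 and 2.5 and then 6.38, 2.74 and 3.48 TPM. The late difference was 7.74 ± 0.36 (adjusted p = 8.36e-11). Its WT step missed the threshold at an adjusted p of 0.0576 and was called without WT replicate 2 or mutant replicate 3 at 45 DAP. A rhamnogalacturonate lyase (MELO3C003507.2), which cuts the branched regions of pectin, fell in both genotypes. It dropped in WT from 45.5, 32.2 and 51.6 to 1.57, 1.53 and 0.55 TPM and in the mutant from 1.91, 2.89 and 4.38 to 0, 0 and 0.08 TPM. The 2 mutant values of 0 at 45 DAP leave the size of its fall uncertain, and the difference of 2.39 ± 0.66 (adjusted p = 0.0123) went to 0.509 with an adjusted p of 0.74 when 0.1 in place of 1 was added to the TPM.

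Among 88 genes of wall loosening, which takes in expansins, xyloglucan enzymes and wall glycosidases, 11 differed toward the mutant and 8 away from it (4 without WT replicate 3 at 35 DAP, 5 without WT replicate 3 at 45 DAP), 21.6% against 25.1% of all genes, with a median of -0.12. Endoglucanase 5 (MELO3C023598.2), of the family that cuts beta-1,4-glucan chains, stood below 1 TPM in all WT libraries, at 0.56, 0.76 and 0.88 TPM and then 0.31, 0.09 and 0.12 TPM. The mutant went from 0, 0.03 and 0 TPM to 91.8, 93.1 and 145 TPM. Its difference of 7.31 ± 0.23 had the smallest adjusted p on that list (9.59e-14), and its WT fall from under 1 TPM was not called without WT replicate 3 at 35 DAP or WT replicate 2 or 3 at 45 DAP. A beta-galactosidase (MELO3C005054.2), of the enzymes that trim galactose from wall polymers, went from 5.89, 9.25 and 7.64 to 54.5, 62.2 and 106 TPM in the mutant and from 6.49, 6.27 and 6.53 to 2.8, 4.02 and 3.65 TPM in WT. The WT and mutant values at 35 DAP lay within a few TPM of each other, and only the mutant libraries were high at 45 DAP. The difference was 3.83 ± 0.30 (adjusted p = 5.73e-08), and the WT fall was lost without WT replicate 1 or 3 at 35 DAP or replicate 1 at 45 DAP.

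Mannan endo-1,4-beta-mannosidase (MELO3C022162.2), which cuts mannan in cell walls, had the largest late difference among the genes named for the mutant alone. The mutant held 0, 0.56 and 0 TPM at 35 DAP and 320.4, 362 and 348 TPM at 45 DAP. WT had it at 1098, 264 and 1043 TPM and then 178, 239.9 and 193 TPM, so the mutant libraries at 45 DAP lay above the WT libraries of that age, a genotype difference that was not called (adjusted p = 0.321), and within the WT range of 35 DAP. The late difference was 9.94 ± 0.91 (adjusted p = 4.09e-07). WT replicate 2 at 35 DAP was the low one of its group, and without it the WT step was called and the gene became a reversed one.

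Ethylene genes differed late in both directions. Of 28 tested genes of ethylene synthesis, 8 differed toward the mutant (5 without WT replicate 3 at 45 DAP) and 4 away from it, 42.9% against 25.1% of all genes, with a median difference of 0.52. In the mutant step 10 rose (35.7%, against 13.1% of all genes) and 6 fell (21.4%, against 16.2%). In the WT step 2 rose (7.14%, against 7.2%) and 3 fell (10.7%, against 8.77%). An ACC oxidase-1-like gene (MELO3C026436.2), for the last enzyme of ethylene synthesis, stood at 103, 21.1 and 58.2 TPM in the mutant at 35 DAP and at 422, 694 and 509 TPM at 45 DAP. WT libraries held 1425, 857 and 1370.3 and then 851, 1221 and 1002 TPM, all above the mutant libraries of both ages, although the genotype difference at 45 DAP was not called (adjusted p = 0.121). The late difference was 3.60 ± 0.72 (adjusted p = 0.00124). An S-adenosylmethionine synthase (MELO3C012911.2), whose product is the precursor of ethylene and also a general methyl donor, was reversed the other way. It rose in WT from 26.4, 58.4 and 24.9 to 80.7, 75.4 and 71.2 TPM and fell in the mutant from 726, 855 and 723 to 562, 456 and 501 TPM. Every mutant library still stood above every WT library, and the difference was -1.74 ± 0.30 (adjusted p = 0.000381). Its mutant step was not called without mutant replicate 1, 2 or 3 at 35 DAP or replicate 2 or 3 at 45 DAP.

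Both named ethylene receptor genes rose late in the mutant; these receptors hold the response back until they bind the hormone. Of 16 tested genes of ethylene perception and signalling, 5 differed toward the mutant and 1 away from it, 37.5% against 25.1% of all genes, with a median of 0.26. One receptor gene (MELO3C006451.2) went from 122, 66.1 and 103 to 253, 222 and 291 TPM in the mutant and stood at 132, 129 and 130.4 and then 117, 122 and 107 TPM in WT. Another (MELO3C015961.2) rose in both genotypes, in WT from 15.3, 13.7 and 16.5 to 21.2, 21.4 and 22.5 TPM and in the mutant from 86.8, 69.2 and 82.4 to 294, 208 and 268 TPM. Mutant libraries stood above WT libraries at both ages for the latter, and its rise was larger in the mutant by 1.18 ± 0.19 (adjusted p = 0.000192). The WT rise of this receptor was not called without WT replicate 2 at 35 DAP or replicate 3 at 45 DAP. The first receptor differed by 1.60 ± 0.30 (adjusted p = 0.00074).

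Carotenoid synthesis genes were called as often as all genes, 25% against 25.1%, and 7 of the 8 calls were toward the mutant. Of 32 tested, 7 differed toward the mutant (21.9%, against 11.9% of all genes) and 1 away from it (7 to 10 and 0 to 5 without each library in turn), with a median of 0.30. The WT step called 2 higher (6.25%, against 7.2% of all genes) and 8 lower (25%, against 8.77%). The mutant step called 6 higher (18.8%, against 13.1%) and 1 lower (3.12%, against 16.2%). Reversed changes were found for 4 genes, all of them higher in the mutant. The median mutant change was 0.02, and the 6 rises there were 3 without mutant replicate 2 at 35 DAP. The count of 8 falls in WT was 3 without WT replicate 1 at 35 DAP, 2 without replicate 3 at 35 DAP, 4 without replicate 1 at 45 DAP and 5 without replicate 2 at 45 DAP. Prolycopene isomerase (MELO3C016495.2), which turns poly-cis-lycopene into the all-trans form, fell in WT from 56.9, 34.5 and 61.8 to 17.9, 22.1 and 20.2 TPM. It rose in the mutant from 9.53, 7.04 and 8.46 to 39.8, 31.9 and 30.3 TPM, so that the order of the genotypes at 35 DAP was the opposite of that at 45 DAP, with no overlap at either age. The difference was 3.17 ± 0.29 (adjusted p = 3.54e-07).

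Beta-carotene hydroxylase (MELO3C005704.2), which turns beta-carotene into xanthophylls, was at or below 3.42 TPM in every late library except those of the mutant at 45 DAP. Its 3 mutant libraries held 1.75, 0.54 and 1.36 TPM at 35 DAP and 104, 97.1 and 149.7 TPM at 45 DAP, against 3.42, 1.28 and 3.16 and then 0.65, 1.31 and 0.33 TPM in WT. The difference was 6.76 ± 0.38 (adjusted p = 8.02e-10). The WT libraries of the 2 ages overlapped, and the WT fall was not called without WT replicate 1 or 3 at 35 DAP or replicate 3 at 45 DAP.

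Of 11 tested genes of chlorophyll breakdown, 4 differed toward the mutant (36.4%, against 11.9% of all genes) and 1 away from it, with a median of 0.44. The 1 gene away was no longer called with quantile normalization or without any one of 11 of the 12 late libraries, all but mutant replicate 2 at 35 DAP. STAY-GREEN (MELO3C005616.2), the enzyme that takes magnesium out of chlorophyll, fell in WT from 558, 388 and 593 to 157, 247 and 203 TPM. In the mutant it rose from 46, 39.6 and 37.9 to 83.8, 108 and 101 TPM. All 6 WT libraries were above all 6 mutant libraries, and the gap was narrower at 45 DAP, with a late difference of 2.56 ± 0.25 (adjusted p = 9.94e-07). Pheophorbide a oxygenase (MELO3C004867.2), which opens the chlorophyll ring, rose in the mutant from 28, 23.6 and 26.8 to 78.1, 81.4 and 81.8 TPM and stood at 75.2, 55.9 and 85.9 and then 65.8, 63.8 and 67.9 TPM in WT. The mutant libraries of 45 DAP lay above the WT libraries of 45 DAP and within the WT range of 35 DAP. Its difference was 1.70 ± 0.17 (adjusted p = 1.22e-06).

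The photosynthesis list had a median late change above 0 in both genotypes. Carotenoid synthesis and chlorophyll breakdown had WT medians below 0 (-0.37 and -0.12) and mutant medians near 0 (0.02 and 0.03). With quantile normalization those mutant medians were -0.008 and 0.015. Of 91 tested genes, 15 rose late in WT (16.5%, against 7.2% of all genes) and 4 fell (4.4%, against 8.77%). In the mutant 19 rose late (20.9%, against 13.1%) and 1 fell (1.1%, against 16.2%). The difference was called for 9.89% of them, against 25.1% of all genes, 7 toward the mutant and 2 away (3 to 9 and 1 to 4 without each library in turn). Only 6 of the 91 were shared genes, and 58 had no late change. Median changes were 0.52 in WT and 0.62 in the mutant. The count of 15 rises in WT was 3 without WT replicate 3 at 45 DAP and 8 without replicate 1 at 35 DAP. A light-harvesting chlorophyll a-b binding protein (MELO3C015536.2) went against the list. It fell in WT from 66.3, 43.9 and 71.4 to 19.5, 28.3 and 26.8 TPM and rose in the mutant from 1.5, 2.76 and 2.11 to 8.17, 18.3 and 8.22 TPM, a difference of 3.17 ± 0.40 (adjusted p = 1.72e-05). Rubisco activase (MELO3C008231.2), which keeps the carbon-fixing enzyme active, was also reversed, from 85.3, 64.2 and 99 to 38.9, 31.9 and 47.4 TPM in WT and from 36.5, 30.1 and 38.1 to 68, 93.1 and 71.5 TPM in the mutant. Its WT fall was lost without WT replicate 1 or 3 at 35 DAP or replicate 2 at 45 DAP.

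Of 42 tested genes of sucrose and raffinose-family sugars, 5 differed toward the mutant and 4 away from it (3 to 7 and 2 to 6 without each library in turn, and 9 toward it after median-of-ratios scaling), 21.4% against 25.1% of all genes. An acid beta-fructofuranosidase (MELO3C005363.2), an invertase that splits sucrose, fell in WT from 73, 49.5 and 101 to 9.82, 8.6 and 3.35 TPM and rose in the mutant from 2.11, 5.85 and 4.31 to 13.2, 15.7 and 10.8 TPM. WT was the higher genotype at 35 DAP. At 45 DAP the mutant libraries were the higher ones without overlap, but the genotype difference at that age was not called (adjusted p = 0.103). The difference of the late changes was 4.79 ± 0.64 (adjusted p = 3.12e-05). The mutant rise was not called without mutant replicate 1 at 35 DAP or replicate 2 at 45 DAP. Raffinose synthase (MELO3C026247.2), which adds galactose to sucrose, was reversed in the same sense with no loss of class when any 1 library was left out. It went from 47.2, 35.8 and 52.8 to 19.6, 19.1 and 20.1 TPM in WT and from 13.2, 22.6 and 15.4 to 45.9, 37.6 and 50.7 TPM in the mutant, a difference of 2.52 ± 0.23 (adjusted p = 4.38e-07).

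A beta-amylase (MELO3C023067.2), which releases maltose from starch, stood at 0.96, 0.77 and 1.42 TPM in the mutant at 35 DAP and at 657, 484 and 633 TPM at 45 DAP. WT had 321, 154 and 331 TPM and then 179, 212 and 159 TPM, so the mutant passed from below all WT libraries to above all of them. The difference of 8.65 ± 0.43 had an adjusted p of 1.78e-10. Among 32 tested sugar transporters 4 differed toward the mutant and 5 away from it, 28.1% in all against 25.1% of all genes. The SWEET transporter MELO3C029548.2, of a family that lets sugar out of cells, rose in the mutant from 2.19, 8.48 and 5.23 to 15.9, 18.6 and 18.4 TPM and had 18, 10.6 and 13.8 and then 11.5, 6.96 and 1.31 TPM in WT. Its difference was 2.97 ± 0.67 (adjusted p = 0.00322), and its class changed without mutant replicate 1 at 35 DAP or WT replicate 1 at 45 DAP. A putative sugar transporter (MELO3C007324.2) fell in WT, from 15.2, 16.2 and 15.5 to 2.77, 3.61 and 1.71 TPM, and stayed below 1 TPM in every mutant library.

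Of 43 tested organic acid genes, 6 differed toward the mutant and 3 away from it, 20.9% in all against 25.1% of all genes. The count away was 1 without WT replicate 1 or 3 at 35 DAP or replicate 3 at 45 DAP. NADP isocitrate dehydrogenase (MELO3C025076.2), which turns isocitrate into 2-oxoglutarate, fell in WT from 2576, 1943 and 2863 to 1267, 1562 and 1534 TPM. The mutant held 555, 511 and 534 and then 614, 639 and 676 TPM, all below the WT libraries, with a difference of 1.01 ± 0.21 (adjusted p = 0.00191). Phosphoenolpyruvate carboxylase kinase 1 (MELO3C024646.2), which switches on an enzyme that makes oxaloacetate, rose in the mutant from 14.6, 13.2 and 12.7 to 47.9, 46.7 and 36.3 TPM. Its WT libraries of the 2 ages overlapped at 21.4, 29.3 and 25.9 and 15.7, 17.8 and 26.1 TPM.

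Of 46 tested aroma volatile genes, 5 differed toward the mutant and 6 away from it, 23.9% against 25.1% of all genes. Without WT replicate 2 at 35 DAP 11 differed away from the mutant, and without WT replicate 1 at 35 or 45 DAP 3 differed toward it. A chloroplast linoleate 13S-lipoxygenase (MELO3C014637.2), which starts the making of fatty acid volatiles, rose in WT from 1.91, 5.88 and 6.45 to 37.2, 26.2 and 57.2 TPM. In the mutant it was listed at 0, 0 and 0.02 TPM at 35 DAP and at 0 in all 3 libraries of 45 DAP. A branched-chain amino acid aminotransferase-like gene (MELO3C003454.2), of the enzymes that feed ester synthesis from valine, leucine and isoleucine, moved by less. It had 11.7, 11.5 and 13.2 and then 16.8, 18.1 and 12.6 TPM in WT, where the ages overlapped, and 14.9, 17.5 and 16 and then 9.33, 9.71 and 9.39 TPM in the mutant, with a difference of -1.05 ± 0.15 (adjusted p = 4.64e-05). Its WT rise was lost without WT replicate 1 or 2 at either age.

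**Figure D2:**
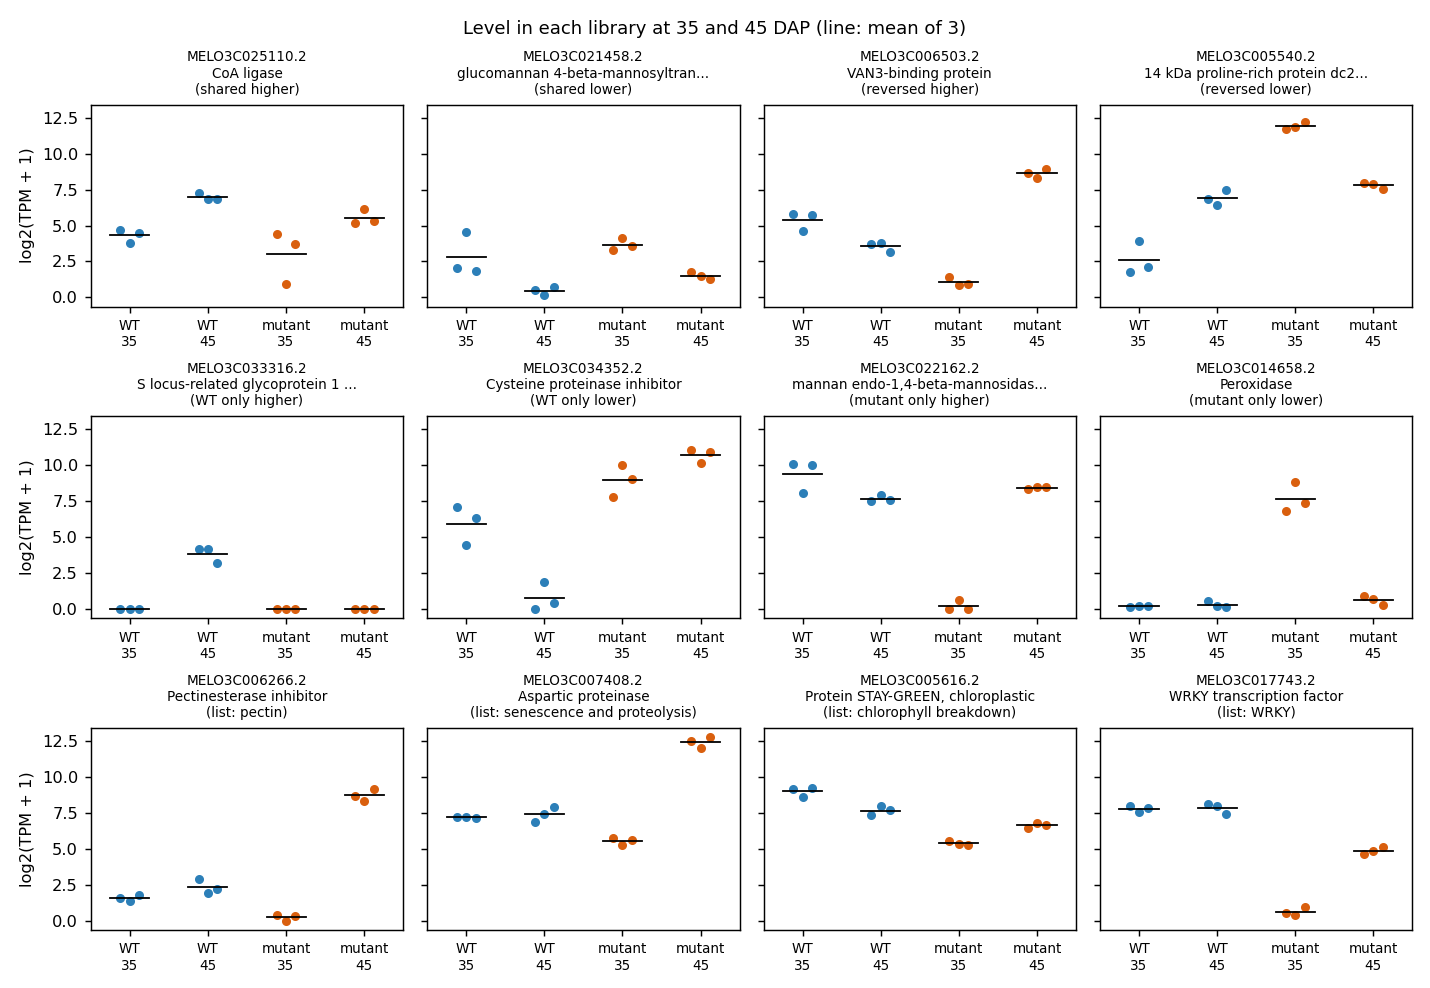
Level of 12 genes as log2(TPM + 1) in each of the 12 late libraries, with WT in blue and cmnac-nor in orange at 35 and 45 DAP, 1 point a library and a line at the mean of 3. The first 8 panels lead their class and direction and the last 4 lead a gene list. MELO3C006503.2 goes down in WT and up in the mutant, MELO3C033316.2 is above 0 only in WT at 45 DAP, and MELO3C014658.2 is high only in the mutant at 35 DAP.

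NAC and WRKY transcription factors were called no more often than all genes, 22.2% and 24% against 25.1%. Of 54 tested NAC genes 10 differed toward the mutant (18.5%, against 11.9% of all genes) and 2 away from it (3.7%, against 13.2%), and of 50 WRKY genes 9 (18%) and 3 (6%), with medians of 0.06 and 0.52. The WRKY count of 3 was 1 without mutant replicate 3 at 35 DAP. NAC83 (MELO3C022342.2), whose Arabidopsis relative is known for restraining xylem vessel formation, fell in WT from 37.1, 27.7 and 31.8 to 12.1, 9.85 and 9.42 TPM. It rose in the mutant from 33.4, 30.1 and 34 to 100.1, 95.5 and 128 TPM. The genotypes overlapped at 35 DAP and were apart at 45 DAP, and the difference was 3.22 ± 0.21 (adjusted p = 4.72e-09). A WRKY gene (MELO3C017743.2), of a family tied to defence and senescence, went from 0.41, 0.31 and 0.96 to 23.2, 27.1 and 33.7 TPM in the mutant. WT held 246, 189 and 228 and then 271, 249.7 and 166 TPM, far above the mutant at both ages, so the rise of 4.22 ± 0.30 (SE) on the log2 scale did not bring the mutant to the WT level.

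Of 87 tested MYB genes 7 differed toward the mutant (8.05%) and 17 away from it (19.5%), of 36 MADS-box genes 3 and 5, of 88 AP2/ERF genes 10 and 7, and of 70 bHLH genes 8 and 9. In all 27.6%, 22.2%, 19.3% and 24.3% of these families were called, against 25.1% of all genes. Without each library in turn the counts were 4 to 7 and 14 to 19 for MYB, 4 to 11 away for AP2/ERF, and 5 to 8 and 4 to 12 for bHLH. The members with the smallest adjusted p in these families all fell in the mutant. MYB44 (MELO3C009678.2), a stress-responsive regulator in Arabidopsis, went from 7.7, 13.9 and 9.68 to 0.77, 0.83 and 0.96 TPM. ERF039 (MELO3C013926.2), of the ethylene response factor family, went from 37.7, 56.3 and 45.9 to 8.8, 9.13 and 8.69 TPM, and bHLH71 (MELO3C003421.2) from 20.9, 16.2 and 29 to 1.81, 2.22 and 2.11 TPM. AGL80 (MELO3C015239.2), known in Arabidopsis from the central cell of the embryo sac, went from 19.7, 109 and 52.7 to 5.69, 4.63 and 1.35 TPM. In WT all 4 were below 3 TPM in every late library. Their differences were -3.71 ± 0.40, -2.72 ± 0.26, -2.86 ± 0.24 and -3.52 ± 0.73 in that order, and the small WT rise of MYB44 was lost without WT replicate 1 or 3 at 35 DAP or replicate 3 at 45 DAP.

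Hormone lists other than ethylene were mixed. Of 108 tested auxin genes 17 differed toward the mutant and 14 away from it (28.7% in all), and of 85 genes of gibberellin, cytokinin and brassinosteroid 16 and 19, so that 41.2% of that list was called against 25.1% of all genes. An auxin efflux carrier (MELO3C018353.2), which moves auxin out of cells, fell in WT from 46.3, 33.9 and 57.1 to 14.6, 11.8 and 9.04 TPM and rose in the mutant from 19.5, 22.5 and 21.1 to 58.7, 55.4 and 52.3 TPM. It was higher in WT at 35 DAP and higher in the mutant at 45 DAP, with no overlap at either age. Cytokinin dehydrogenase (MELO3C026675.2), which breaks cytokinins down, was listed at 0 in all mutant libraries of 35 DAP and at 14.5, 8.43 and 13.2 TPM at 45 DAP. WT held 0.33, 0.63 and 1.33 and then 0, 0.33 and 0.91 TPM.

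Of 30 tested abscisic acid genes 3 differed toward the mutant and 5 away from it, with a median of -0.22. In all 26.7% were called, against 25.1% of all genes. Abscisic acid is a stress and ripening hormone, and its receptors release the kinases of the pathway from their inhibitors. An abscisic acid receptor (MELO3C013854.2) fell in the mutant from 181, 322 and 222 to 68.9, 62.4 and 70.5 TPM and had 137, 179 and 132 and then 185, 235 and 300.4 TPM in WT, where the later libraries were the higher ones and the step was not called. The difference was -2.46 ± 0.39 (adjusted p = 0.000184). Another receptor (MELO3C003408.2) fell from 4.75, 19.4 and 12.6 to 2, 0.64 and 1.4 TPM in the mutant and was below 1 TPM in WT, and its difference missed the threshold at an adjusted p of 0.0572 when 0.1 was added to the TPM.

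Genes of the cytosolic ribosome, the machine that makes protein, fell late in the mutant. Of 225 tested, 97 fell (43.1%, against 16.2% of all genes) and 10 rose (4.44%, against 13.1%) in the mutant step. In the WT step 17 fell (7.56%, against 8.77%) and 15 rose (6.67%, against 7.2%). The difference was called lower for 71 (31.6%, against 13.2% of all genes) and higher for 9 (4%, against 11.9%). These counts were 51 to 77 and 8 to 11 without each library in turn. Their median change was -0.31 in the mutant and 0.06 in WT, and the median difference was -0.36 against -0.046 over all genes, or -0.33 with libraries scaled by the median of ratios and -0.345 with quantile normalization (all genes: -0.016 and -0.047). The summed level was between 58130 and 62590 TPM in the mutant at 35 DAP and between 41400 and 49550 TPM at 45 DAP. WT held between 30450 and 33190 TPM and then between 29690 and 35000 TPM. The mutant ages did not overlap, the WT ages did, and the mutant stayed above WT at both ages. Ribosomal protein L12 (MELO3C009338.2) fell in the mutant from 376, 388 and 348 to 284, 236 and 269 TPM and rose in WT from 149.9, 179 and 153 to 243, 236 and 237 TPM, a difference of -1.07 ± 0.15 (adjusted p = 4.5e-05). Ribosomal proteins come from families of similar copies, and how the authors' tools shared reads between copies is not given.

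Of 130 tested histone and chromatin genes 10 differed toward the mutant (7.69%, against 11.9% of all genes) and 24 away (18.5%, against 13.2%), and of 178 cell cycle and cytoskeleton genes 21 (11.8%) and 32 (18%). In all, 26.2% and 29.8% were called, near the 25.1% of all genes, and the histone count away fell to 15 (11.5%) without WT replicate 1 at 45 DAP. An H1-like linker histone (MELO3C004394.2) rose in WT from 400.1, 582 and 388 to 994, 954 and 898 TPM and held 437, 330.2 and 379 and then 341, 308 and 326 TPM in the mutant. An alpha-tubulin (MELO3C018026.2), a subunit of microtubules, went the other way and rose in the mutant from 8.77, 10.8 and 10.1 to 77.5, 47.5 and 79.3 TPM, with WT at 21.4, 21.2 and 21.1 and then 24.6, 24.3 and 25.3 TPM. SMR4 (MELO3C023871.2), an inhibitor of cyclin-dependent kinases, stood at 0, 7.75 and 0 TPM in the mutant at 35 DAP and rose to 201, 182 and 273 TPM. WT held 2245, 1175 and 1934 TPM and then 437, 740.0 and 142 TPM, and although the WT ages did not overlap, the WT step was not called (adjusted p = 0.243).

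**Figure D3:**
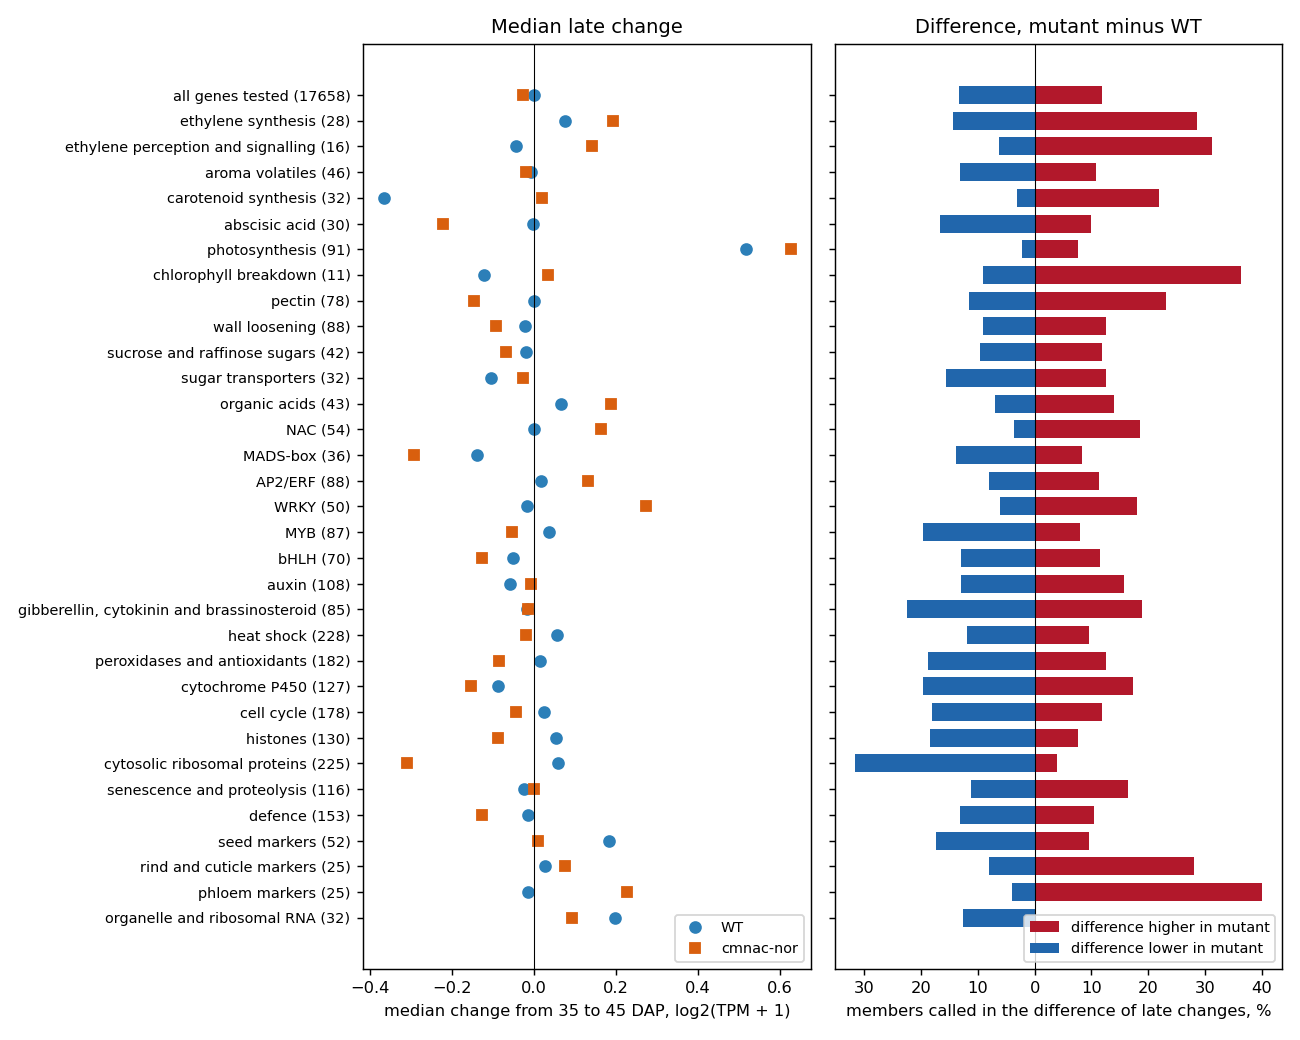
Late changes of the gene lists, with the number of genes tested in brackets. Left, median change from 35 to 45 DAP on the log2(TPM + 1) scale in WT (blue circles) and cmnac-nor (orange squares), and right, percent of members with a called difference, higher in the mutant to the right and lower to the left. Cytosolic ribosomal proteins have the lowest mutant median, -0.31, and 71 of 225 called lower, and carotenoid synthesis the lowest WT median, -0.37.

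Proteolysis genes held one of the most abundant late rises of the named genes. Of 116 tested genes of senescence and proteolysis 19 differed toward the mutant and 13 away (20 without WT replicate 2 at 35 DAP). In all 27.6% were called, against 25.1% of all genes. In the mutant step 18 rose (15.5%, against 13.1% of all genes) and 27 fell (23.3%, against 16.2%). The falls were 15 without mutant replicate 2 at 35 DAP or replicate 3 at 45 DAP. An aspartic proteinase (MELO3C007408.2), of the acid proteases of the vacuole and wall, went in the mutant from 51.5, 37.6 and 47.8 to 5626, 4069 and 6953 TPM. WT held 146, 149 and 138 and then 112, 168 and 239 TPM, so the mutant was below WT at 35 DAP and above it at 45 DAP. The difference was 6.68 ± 0.31 (adjusted p = 8.36e-11). Among 228 heat shock and chaperone genes 22 differed toward the mutant and 27 away, among 182 peroxidase and antioxidant genes 23 and 34, among 127 cytochrome P450 genes 22 and 25, and among 153 defence genes 16 and 20. In all, 21.5%, 31.3%, 37% and 23.5% of these lists were called, against 25.1% of all genes.

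The peroxidase and P450 lists were led by genes that were nearly silent in WT at both late ages and fell late in the mutant. A peroxidase (MELO3C014658.2), of the enzymes that use hydrogen peroxide on wall phenolics, stood at 113, 459.7 and 163 TPM in the mutant at 35 DAP and at 0.83, 0.64 and 0.22 TPM at 45 DAP, with every late WT library below 1 TPM. In the mutant the gene fell by 7.06 ± 0.49 on the log2 scale. Cytochrome P450 71A22-like (MELO3C026260.2), of a family that oxidises small molecules, fell from 38.3, 63.9 and 48.5 to 0.82, 0.46 and 0.39 TPM. A DnaJ chaperone (MELO3C004040.2), a partner of Hsp70, rose instead in the mutant from 1.28, 1.49 and 1.33 to 36.8, 24.3 and 36.2 TPM, a level that WT already had at both ages (39.5, 25.2 and 39.2 and 28.4, 30.9 and 38.8 TPM).

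The reversed genes with the largest differences were of mixed function. A VAN3-binding protein gene (MELO3C006503.2), whose Arabidopsis relatives act with VAN3 in leaf vein patterning, fell in WT from 55.4, 24.1 and 51 to 12.2, 12.9 and 7.88 TPM. In the mutant it rose from 1.72, 0.83 and 0.88 to 393, 321 and 486 TPM, a difference of 9.38 ± 0.56 (adjusted p = 1.66e-09). A metallothionein (MELO3C016513.2), a small metal-binding protein, went from 1141, 167 and 339.8 TPM to 10142, 11629.5 and 8503 TPM in the mutant and from 1881, 815 and 1431 to 472, 140.0 and 105 TPM in WT. At 35 DAP the ranges of the genotypes overlapped. The WT fall was not called without WT replicate 1 or 3 at 35 DAP or replicate 2 or 3 at 45 DAP, while the difference of 7.39 ± 1.05 stayed called when any 1 library was left out.

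Among the genes named for their class were 3 described as cysteine proteinase inhibitors, which block papain-type proteases. One (MELO3C002925.2) was reversed, from 27.8, 7.36 and 27.9 to 0.28, 0.27 and 0 TPM in WT and from 4.69, 14.6 and 11.8 to 316, 186 and 335 TPM in the mutant, with a difference of 8.72 ± 0.63 (adjusted p = 2.25e-08). A further pair with the same description (MELO3C034352.2 and MELO3C034353.2) fell in WT while the mutant step was not called. The first of the pair went from 134, 20.8 and 77.8 to 0, 2.68 and 0.32 TPM in WT and had 223, 1026 and 528 and then 2163, 1112 and 1902 TPM in the mutant. The second went from 51.1, 19.7 and 47.6 to 1.57, 0 and 0.82 TPM and had 128, 619.7 and 328 and then 1163, 610.0 and 1162 TPM. Mutant replicate 2 at 35 DAP was the highest of its group for both, and without it both became reversed, as did the first without WT replicate 2 at 35 DAP. The pair may share reads, so their values are uncertain as values of separate genes.

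In the opposite sense, the 14 kDa proline-rich protein DC2.15 (MELO3C005540.2), of a family of small wall proteins, fell in the mutant from 3338, 3738 and 4625 to 248, 232 and 187 TPM and rose in WT from 2.38, 13.9 and 3.43 to 113, 83.2 and 172 TPM. Every mutant library stayed above every WT library, although the genotype difference at 45 DAP was not called (adjusted p = 0.104), and the difference of the late changes was -8.41 ± 0.66 (adjusted p = 6.45e-08). A glycosyltransferase (MELO3C017673.2), which transfers sugars onto other molecules, rose in WT from 1.35, 2.74 and 1.08 to 38.5, 39.3 and 47.5 TPM and fell in the mutant from 14.6, 5.13 and 11.9 to 0.74, 1.07 and 1.14 TPM. A leucine-rich repeat protein gene (MELO3C032314.2) rose in WT from 8.29, 1.01 and 9.33 to 27.2, 19.4 and 17.6 TPM and fell in the mutant from 192, 45 and 126 to 0, 0 and 1.7 TPM. Its WT rise had an adjusted p of 0.0489 and was lost without any one of 8 of the 12 libraries, among them all 3 WT libraries of 45 DAP.

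The other genes named for a late fall in the mutant alone were low in WT. The gene described as allergen Act d 3 (MELO3C011233.2), after a kiwifruit allergen, went from 77.2, 183 and 104 to 4.32, 2.74 and 2.07 TPM in the mutant and had 0.19, 0.61 and 0.17 and then 3.57, 0.6 and 1.14 TPM in WT. A DETOXIFICATION transporter (MELO3C034028.2), of the MATE family that exports small molecules, fell in the mutant from 110.5, 170.3 and 97.7 to 4.73, 4.53 and 5.21 TPM. WT had 0.75, 2.21 and 1.42 and then 6.97, 4.24 and 5.48 TPM, all higher at the later age, so that the mutant libraries of 45 DAP reached the WT range of that age. Without WT replicate 2 at 35 DAP this WT rise was called and the gene became reversed.

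Genes that moved late in WT alone included some that no mutant library showed. A gene described as an S locus-related glycoprotein 1 binding pollen coat protein (MELO3C033316.2) was listed at 0 in all WT libraries of 35 DAP and in all 6 mutant libraries, and at 17.1, 16.7 and 8.01 TPM in WT at 45 DAP. An MP domain-containing protein gene (MELO3C032564.2) rose in WT from 0.45, 1.82 and 3.04 to 33.1, 22.4 and 37.7 TPM and was also listed at 0 in all 6 mutant libraries. A glucan endo-1,3-beta-glucosidase-like gene (MELO3C019680.2), of the enzymes that cut callose and fungal walls, fell in WT from 32.2, 16 and 58.2 to 0.62, 0.77 and 1.17 TPM. Mutant libraries held 3.28, 1.42 and 2.3 and then 4.62, 8.87 and 3.82 TPM, and the gene became reversed without WT replicate 2 or 3 or mutant replicate 1 at 35 DAP, or without mutant replicate 3 at 45 DAP. A gene of the description AT4g28240 (MELO3C013538.2) rose in WT from 9.38, 12.1 and 4.16 to 77.1, 66.7 and 93.9 TPM. Its mutant libraries held 7.27, 7.43 and 1.55 and then 8.83, 0 and 6.07 TPM, and its difference (adjusted p = 0.0238) was lost without WT replicate 3 at 35 DAP (adjusted p = 0.0645), mutant replicate 1 (0.0514) or 2 (0.0573) at 35 DAP, WT replicate 3 at 45 DAP (0.05) or mutant replicate 2 at 45 DAP (0.0666).

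Shared late changes included genes of wall, regulatory and transport descriptions. A CoA ligase gene (MELO3C025110.2), of the enzymes that activate acids such as cinnamic or fatty acids, rose in WT from 25, 13 and 20.9 to 149, 115 and 113 TPM and in the mutant from 20.3, 0.92 and 11.9 to 35, 69.2 and 38 TPM. Its steps were 2.65 ± 0.60 (SE) and 2.52 ± 0.60 (SE), and the difference of -0.13 ± 0.84 was not called. A homeobox-leucine zipper gene (MELO3C007736.2), like Arabidopsis ATHB-6 of the abscisic acid response, fell in WT from 10.5, 11.9 and 6.79 to 1.36, 2.12 and 2.13 TPM and in the mutant from 653, 781 and 658 to 169, 144 and 153 TPM. The mutant stayed far above WT at both ages. A further shared fall was that of a glucomannan 4-beta-mannosyltransferase (MELO3C021458.2), which builds wall mannans, from 3.22, 22.6 and 2.49 to 0.41, 0.14 and 0.62 TPM in WT and from 8.97, 16.4 and 10.8 to 2.43, 1.8 and 1.41 TPM in the mutant.

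A gene described as a sulfate import ATP-binding protein (MELO3C002607.2), after a bacterial transporter subunit, rose in both genotypes, with a difference of 0.86 ± 0.41 that was not called (adjusted p = 0.132). WT went from 1.6, 1.56 and 0.36 to 8.71, 12.3 and 5.41 TPM and the mutant from 6.77, 7.11 and 5.64 to 59.2, 70.7 and 51.8 TPM. A DnaJ gene (MELO3C018658.2) rose from 14.7, 9.69 and 2.41 to 46.8, 27.4 and 41.6 TPM in WT and from 5.04, 0 and 0.74 to 37.6, 35.8 and 100.2 TPM in the mutant. Its shared class did not hold without WT replicate 3 at 35 DAP or any one WT library of 45 DAP.

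The libraries of 15 and 25 DAP, which made none of these classes, showed how the same genes moved early. Over all genes tested the WT step from 15 to 25 DAP called 18.5% higher and 44.8% lower, and the mutant step 10.9% higher and 8.12% lower. Of the 1078 genes that rose late in the mutant alone, 366 (34%) had risen and 329 (30.5%) had fallen early in WT. Of the 1326 that fell late in the mutant alone, 102 (7.69%) had risen and 915 (69%) had fallen early in WT. The reversed genes followed the same order, with 41.8% risen and 30.2% fallen early in WT among those that rose late in the mutant, and 15.3% and 62.8% among those that fell late there. Genes that fell late in WT alone had risen early in WT in 33.3% and fallen in 38.1%, and those that rose late in WT alone in 16.3% and 37.3%. The shared genes had the same order: early in WT, 38.4% of their late rises had risen and 26.7% fallen. Of the shared late falls 13.3% had risen and 69.2% fallen. In the mutant's own early step, 24.4% of the late rises in the mutant alone had risen and 5.57% fallen. Of the late falls in the mutant alone 6.56% had risen there and 17.7% fallen.

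Seen from the early side, 3275 genes rose in WT from 15 to 25 DAP. Of these, 786 rose late in the mutant (24%, and 34.1% of the late mutant rises) and 257 fell late there (7.85%). Of the same genes 288 rose late in WT (8.79%) and 429 fell (13.1%). Of the 7915 genes that fell early in WT, 1970 fell late in the mutant (24.9%, and 68.9% of the late mutant falls) and 685 rose (8.65%). The early WT step depends on scaling: its median was -0.359 on the deposited scale, -0.079 when libraries were scaled by the median of ratios and 0.015 with quantile normalization. Of its rises 24.5% and 21.2% then rose late in the mutant, against 14.8% and 14% of all genes, and of its falls 26.5% and 32.1% fell late in the mutant, against 15.9% and 18.2%.

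Some named genes followed this order and others went against it. The WRKY gene MELO3C017743.2 rose early in WT by 5.29 on the log2 scale, STAY-GREEN by 2.80, ACC oxidase MELO3C026436.2 by 2.99 and the mannosidase MELO3C022162.2 by 3.75, each of them a gene that rose late in the mutant. The ACC oxidase gene also rose early in the mutant, by 2.65, and its early genotype difference of -0.34 was not called. The WRKY gene rose early in the mutant by 1.04, also called. STAY-GREEN and the mannosidase had no called early step in the mutant. The early change in WT was -7.26 for the peroxidase MELO3C014658.2, -6.72 for DC2.15 and -3.34 for ERF039, each a gene that fell early in WT and late in the mutant. Other named genes had no called early step in WT, among them endoglucanase 5 (-0.09), the pectinesterase inhibitor MELO3C006266.2 (0.12) and the aspartic proteinase MELO3C007408.2 (0.46). Several fell early in WT but rose late in the mutant. They include polygalacturonase MELO3C011986.2 (-1.08), cysteine proteinase inhibitor MELO3C002925.2 (-3.18), ethylene receptor MELO3C015961.2 (-3.17) and MELO3C002607.2 (-2.21). So did DnaJ MELO3C018658.2 (-2.115), phloem lectin MELO3C027040.2 (-1.67), MELO3C024646.2 (-1.41), beta-carotene hydroxylase (-1.34), the SWEET transporter (-1.2) and NAC83 (-0.64). The rhamnogalacturonate lyase (2.24), glycosyltransferase MELO3C017673.2 (2.03) and abscisic acid receptor MELO3C013854.2 (0.906) rose early in WT and fell late in the mutant.

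**Figure D4:**
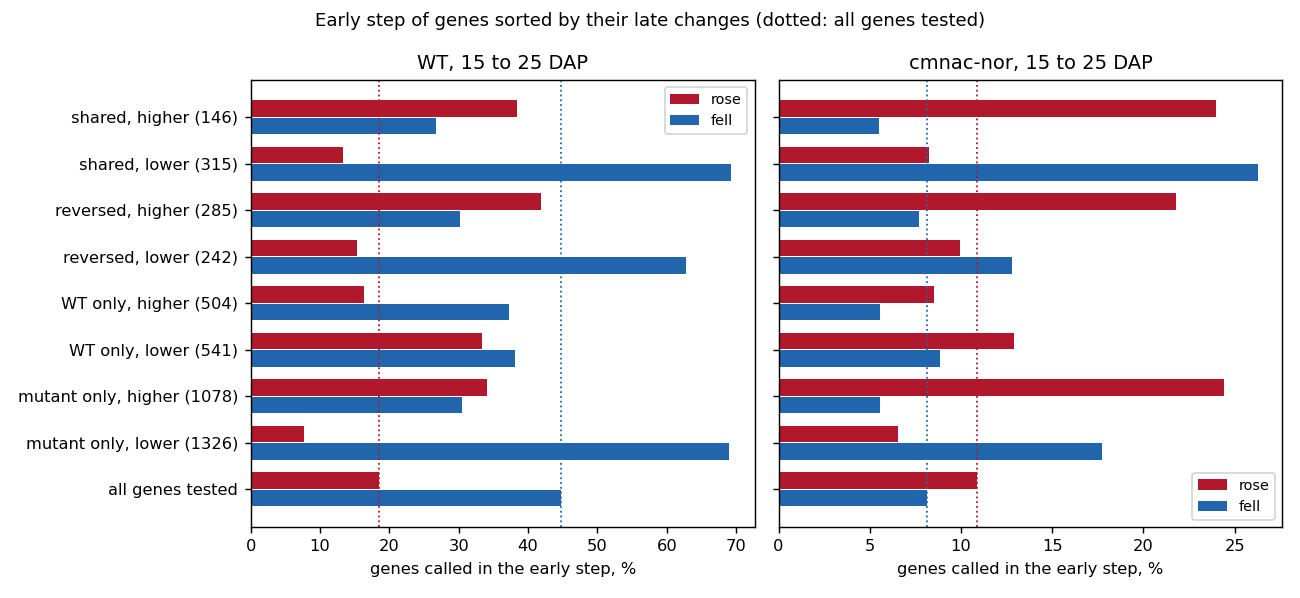
Percent of the genes of each late class that were called higher (red) or lower (blue) from 15 to 25 DAP in WT (left) and cmnac-nor (right), with the number of genes in brackets and dotted lines at the values over all genes tested (18.5% and 44.8% in WT, 10.9% and 8.12% in the mutant). Of the genes that fell late in the mutant alone, 69% had fallen early in WT, and of those that fell late in both genotypes, 69.2%.

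The genotype difference of the early step and that of the late step share no library, and where both were called they more often had opposite signs. The early difference, mutant change minus WT change from 15 to 25 DAP, was higher for 37% and lower for 12.8% of the genes tested. Of 2512 genes called in both, 824 had the same sign and 1688 opposite signs. Among the 2333 genes with a lower late difference, 1164 had a higher early one (49.9%, and 17.8% of the early higher calls) and 189 a lower early one (8.1%). Among the 2105 with a higher late difference, 524 had a lower early one (24.9%, and 23.2% of the early lower calls) and 635 a higher early one (30.2%). After median-of-ratios scaling, which moved the early difference's median from 0.4 to 0.061, the opposite-sign shares were 34.6% and 36.2% against 24.7% higher and 23.6% lower over all genes, and after quantile normalization, with a median of -0.051, 30.9% and 36.6% against 20.7% and 24.2%.

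Some genes went from near silence to clear levels, by group means under 1 TPM and of 10 TPM or more, limits chosen after the values were seen. In the mutant 51 genes rose across both limits between 35 and 45 DAP, 43 of them called, and 45 fell across them, 26 called. In WT 13 rose across them (4 called) and 19 fell (14 called). Of the 51 mutant genes that rose, 14 had a mean of 10 TPM or more in WT at 25 DAP (27.5%), and 9 were under 1 TPM at every WT age. Of the 45 that fell, 1 had such a mean in WT at 25 DAP (2.22%), and of all genes tested 51.5%. The 51 were picked for a mutant mean under 1 TPM at 35 DAP, so all genes are not a like set.

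Markers of other tissues were read in the same libraries, with results that differed by list. No list of defining flesh markers was at hand to check the labelled tissue. Phloem markers, 28 genes listed, summed to between 3844 and 7147 TPM in the mutant at 35 DAP and between 7177 and 10600 TPM at 45 DAP, against between 180.6 and 371 TPM and then between 98.31 and 150.7 TPM in WT. A 26 kDa phloem lectin gene (MELO3C002874.2) made most of the mutant sums. Its mutant means were 4011 TPM at 35 DAP and 5957 TPM at 45 DAP, of mean sums of 5427 and 9069 TPM. Of 25 tested, 10 had a higher late difference and 1 a lower one (44% in all, against 25.1% of all genes). In WT 8 fell late (32%, against 8.77%). In the mutant 7 rose (28%, against 13.1%) and 7 fell (28%, against 16.2%). Without mutant replicate 1 at 35 DAP 8 had a lower late difference, and without WT replicate 1 or 3 at 35 DAP 4 fell late in WT. At 45 DAP 11 of the 28 were at 0 in all WT libraries and 3 in all mutant ones. A 17 kDa phloem lectin (MELO3C027040.2), a sieve-tube protein of cucurbits, fell in WT from 11.1, 5.79 and 16 to 1.62, 0.35 and 0 TPM and rose in the mutant from 0.38, 2.24 and 1.17 to 27.7, 22.1 and 29.5 TPM. The 9 genes described as SIEVE ELEMENT OCCLUSION B, proteins that plug sieve tubes, went the other way: all had lower mutant means at 45 than at 35 DAP, the mutant fall was called for 6 and the late difference for 1. They summed to between 12.41 and 206.1 TPM in the mutant at 35 DAP and between 5.06 and 10.68 TPM at 45 DAP, and to at most 2.26 TPM in WT. The one with the highest mean (MELO3C026765.2) had 0.5, 78.27 and 16.22 and then 1.07, 1.34 and 0.31 TPM in the mutant, so that the ages overlapped, and was listed at 0 in all late WT libraries. Without mutant replicate 2 at 35 DAP, the high library, 1 phloem marker in place of 7 fell in the mutant. Phloem lectins have similar copies, so the value of any one is uncertain. In bulk tissue, more cells of a type and more RNA per cell cannot be told apart, and the part of phloem in the late differences was not tested.

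Rind and cuticle markers summed to between 190.1 and 238.9 TPM in the mutant at 35 DAP and between 4240 and 7163 TPM at 45 DAP, against 228.9 to 268.3 and 237.8 to 274.6 TPM in WT. One gene made that rise, a non-specific lipid-transfer protein-like gene (MELO3C018657.2), of small proteins that carry lipids toward the cuticle. It went from 19.4, 13.6 and 9.63 to 4557, 4029 and 6943 TPM in the mutant and had 108, 43.4 and 128 and then 129, 97.8 and 112 TPM in WT. Without it the other 24 tested markers summed to between 211.4 and 226.4 TPM in the mutant at 45 DAP, within their 35 DAP range of 170.7 to 229.3 TPM. Of 40 listed storage and oil body genes of seeds, between 28 and 33 were at 0 in all libraries of a late group, and their sums stayed between 53.35 and 159.4 TPM. A late embryogenesis abundant protein gene (MELO3C024247.2), of the broader seed list, fell in the mutant from 77.9, 98.9 and 77.7 to 3.29, 3.5 and 0.73 TPM. Most called members of that list went the other way in the mutant step. There 10 of 52 tested rose (19.2%, against 13.1% of all genes) and 4 fell (7.69%, against 16.2%). The rises were 4 without mutant replicate 2 at 35 DAP or replicate 3 at 45 DAP. The late difference was toward the mutant for 5 of the 52 and away from it for 9. In all 26.9% were called, against 25.1% of all genes. Of 32 organelle and ribosomal RNA genes 0 differed toward the mutant and 4 away (12.5% in all, against 25.1% of all genes). One of the 4, an ATP synthase epsilon subunit (MELO3C009262.2), fell in the mutant from 8.39, 19.7 and 10.2 to 3.46, 2.63 and 3.32 TPM.

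**Figure D5:**
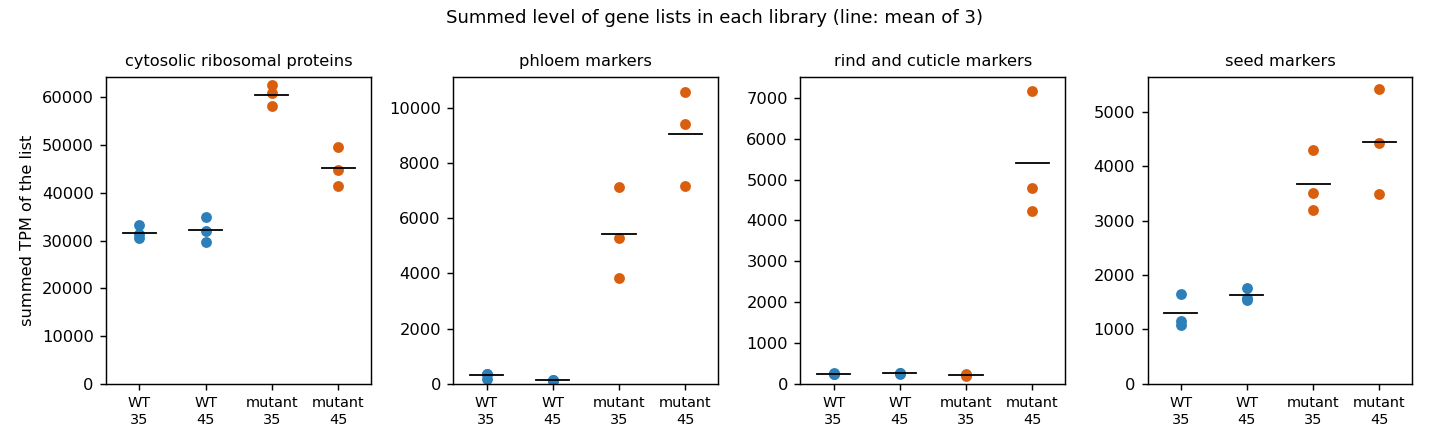
Summed TPM of 4 gene lists in each late library, 1 point a library (WT in blue, cmnac-nor in orange) and a line at the mean of 3, each panel with its own axis from 0. Ribosomal proteins drop in the mutant from between 58130 and 62590 TPM to between 41400 and 49550 TPM, and phloem markers stay at or below 371 TPM in WT while every mutant library holds at least 3844 TPM. By group means, most of the mutant phloem sum is the 26 kDa phloem lectin MELO3C002874.2.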

How the data were processed

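The deposited table holds 1 value per gene and library for 24 libraries of melon flesh. No header or label names its unit. They were read as the authors' TPM, because they have decimals and the late libraries sum to between 927159 and 947482 over the genes listed. TopHat2, HISAT2, StringTie and Cufflinks appear in the submitters' processing notes. Versions, the role of each tool, genome build and strand setting are not given in these sources. Libraries were TruSeq preparations of Trizol-extracted, DNase-treated RNA, per the labels' protocols. TPM keep no read depth, so no count model or counting interval was used, and a few abundant transcripts lower all others of a library.

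Groups came from the sample titles. The test was limma-trend (limma 3.58.1, R 4.3.3) on log2(TPM + 1), two-sided, with all 24 libraries in 8 group means and no covariate, after a filter of 1 TPM in at least 3 libraries that left 17658 of 29980 genes. Of the genes listed, 7471 were at 0 in every library. Calls needed a Benjamini-Hochberg adjusted p under 0.05 over all genes tested, separately for each contrast. The script was tested on simulated data.

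The 32 gene lists were made from words in the table's gene descriptions, with mismatched words excluded after reading descriptions only, and are described by counts and medians without a set test. The members of the comparison, the lists and the rules were chosen with earlier results of these data known. Named genes are CmNAC-NOR, the 3 genes per class and direction with the largest difference (for shared genes, the largest smaller step) that have a description, a group mean of 10 TPM and no overlap in the called steps, and the 2 members of each ripening list or 1 member of each other list with the smallest adjusted p of the difference. The available gene table is of another melon assembly and matched 0 identifiers, so no coordinates or sequences are given. Alternatives were the value added before the log, the filter, 2 scalings, the libraries in the fit, weights per group, a 2-fold minimum, the replicate number as a block and each late library left out in turn. Leaving out both 35 DAP libraries that stand apart (WT replicate 2 and mutant replicate 2) was chosen after seeing the data.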

Additional observations from a re-analysis of the deposited data

Results flagged for a closer look

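The difference of the late changes between the genotypes was called for 4438 genes, each by the test of the difference itself. Among the named genes, 20 are singled out because in addition all 3 libraries of 45 DAP lay on one side of those of 35 DAP in WT and on the other side in the mutant, with both steps called. Values below are the mutant change minus the WT change on the log2(TPM + 1) scale, with levels and tests as given above.

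Of these, 15 went down in WT and up in the mutant. The wall genes were endoglucanase 5 (7.31), polygalacturonase (6.26) and beta-galactosidase (3.83). The pigment and chloroplast genes were STAY-GREEN (2.56), prolycopene isomerase (3.17), the chlorophyll a-b binding protein (3.17) and Rubisco activase (2.17). The sugar genes were the acid beta-fructofuranosidase (4.79) and raffinose synthase (2.52). The regulator and hormone genes were NAC83 (3.22) and the auxin efflux carrier (3.22). The others were the VAN3-binding protein (9.38), the cysteine proteinase inhibitor MELO3C002925.2 (8.72), metallothionein (7.39) and the 17 kDa phloem lectin (6.55).

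The other 5 went up in WT and down in the mutant. They were the proline-rich protein DC2.15 (-8.41), the leucine-rich repeat protein (-8.16), the glycosyltransferase (-6.45), S-adenosylmethionine synthase (-1.74) and ribosomal protein L12 (-1.07). Named reversed genes were chosen for the size or the adjusted p of this difference, so their sizes are a description. Those chosen for size also had to show no overlap in both steps, so they met that rule in advance. The reversed class did not hold without some single libraries, as given above, for endoglucanase 5, beta-galactosidase, Rubisco activase and the acid beta-fructofuranosidase. The same was true of metallothionein, S-adenosylmethionine synthase and the leucine-rich repeat protein.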

How the results depend on the processing

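The difference kept its direction in every alternative for all 61 named genes, of 67, in which it was called. Of these 58 stayed called in every alternative, and 3 (MELO3C003408.2, MELO3C003507.2 and MELO3C013538.2) lost the call in 1 or more, with the cause not tested. CmNAC-NOR gained a call with only the late libraries (adjusted p = 0.000746), with weights per group (0.0126) and with the replicate block (0.00195). The class was the same without each of the 12 late libraries in turn for 47 of the 67. The numbers of called genes and of genes per class moved by less than 1.5 times with another value added before the log, another filter, either scaling, only the late libraries or weights per group. Split by direction, shared rises went from 146 to 221 after median-of-ratios scaling. Of 384 list counts under the scalings 11 moved by more than 1.5 times, among them pectin differences away from the mutant (9 to 14 with quantile normalization) and sucrose differences toward it (5 to 9 after median-of-ratios scaling).

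A 2-fold minimum, which by construction removes smaller changes, left 2547 differences (1340 higher, 1207 lower), 1015 WT calls (481 and 534) and 2013 mutant calls (1077 and 936). The classes then held 97 shared, 155 reversed, 496 WT, 1195 mutant, 688 without a called step and 833 unresolved genes.

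Without each late library in turn, the difference was called for 3549 to 4990 genes (1756 to 2152 higher, 1745 to 2838 lower), the WT step for 1533 to 3635 (591 to 1991 higher, 942 to 1644 lower) and the mutant step for 3797 to 5463 (1629 to 2410 higher, 2085 to 3053 lower). Shared genes numbered 303 to 521, reversed 250 to 856, WT alone 623 to 1436, mutant alone 1798 to 2424, those without a called step 380 to 475 and unresolved ones 2171 to 2712. Without both 35 DAP libraries that stand apart, 2037 genes rose in WT and 1719 in the mutant, against 1272 and 2306 with them.

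Replicate numbers gave no sign of pairing the libraries. After the group mean of each gene was subtracted, the 18 correlations of same-numbered libraries ran from -0.283 to 0.083. With 3 libraries a group, this check cannot exclude pairing. With the number as a replicate block, the difference was called for 3712 genes, the WT step for 1783 (684 higher) and the mutant step for 4537, with 261 shared, 301 reversed, 707 WT and 2195 mutant genes. Depth is unknown, so it cannot be set against any of these counts.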
